A study of Mus musculus with 18 samples.

Results

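The collagen genes of the mouse genome were followed across forebrain, midbrain and hindbrain in wild-type and Fmr1CRE mice. The members were the protein-coding genes of the GENCODE M21 annotation whose symbol has the form of an alpha chain, such as *Col4a1*, and 44 of the 53468 genes in the gene count table met this rule. They were split by chain type into 11 fibrillar collagens, 6 basement-membrane collagens of type IV and 27 other collagens. The measurement was mRNA sequencing of poly(A) RNA from dissected brain regions at P25. The groups were wild-type forebrain, midbrain and hindbrain and Fmr1CRE forebrain, midbrain and hindbrain, with 3 libraries each. Each mouse gave all 3 regions, so that 18 libraries came from 6 mice, and the mice of both genotypes came from the same litter. Fmr1CRE mice, on a C57BL/6 background, carry a single-base change in a cis-regulatory element of *Fmr1*, introduced by CRISPR/Cas9 as a knock-in of a human variant. The labels do not give the sex of the sequenced mice.

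Collagens are secreted or membrane-bound proteins built of a triple helix of alpha chains. Fibrillar collagens form the tensile fibres of connective tissue, type IV collagens form the sheet-like network of basement membranes, and the other collagens decorate fibrils, form beaded filaments or networks, or span the cell membrane. The brain parenchyma holds little fibrillar collagen, which is found mainly in meninges and around vessels, whereas type IV collagen lines every cerebral blood vessel. Several membrane-spanning and fibril-associated collagens are made by neurons.

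The libraries held 22455512 to 28061185 reads assigned to genes, of which 9316 to 19665 fell on collagens, 0.0400% to 0.0765% of the total. Every one of the 44 members had a count above 0 in every library. *Col10a1*, a short-chain collagen of growing cartilage, was the only member with a median count under 10 in every region, with 1 to 8 counts in all libraries. The dissections were checked with region markers, of which the 5 forebrain markers summed to 98.1 to 132 RPKM in forebrain libraries and 4.05 to 6.35 in hindbrain libraries. In midbrain libraries they summed to 74.3 to 102. The 7 hindbrain markers summed to 31.1 to 87.3 there, against 136 to 307 in hindbrain. The midbrain libraries thus held transcripts of both neighbouring regions, and their part in comparisons with midbrain was not tested. RPKM here is the count scaled to the effective gene length and to the library size on the TMM scale (reads per kilobase and megaread), and it allows levels of different genes to be compared.

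The forebrain libraries labelled replicate 3 did not follow the other regions of the mice they are labelled with. Genes were sought that were at 40 or more normalized counts in a mouse and at 5 or fewer in the same-numbered mouse of the other genotype, in both midbrain and hindbrain. For replicate 3 there were 10 such genes, of which 1 kept its direction in forebrain by at least 4-fold and 6 went the opposite way. For replicate 1 the counts were 5 and 1 of 6 genes, and for replicate 2, where the directions were mixed as well, they were 3 and 5 of 9 genes. An exchange of labels was not tested beyond these counts. The main counts of collagens that rest on forebrain are given with and without the replicate 3 libraries, and the replicate 2 libraries were kept in both.

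The sequence before the RefSeq start of 4 collagens was taken as context for the region differences described below. *Col6a1*, *Col6a5* and *Col25a1* were higher in forebrain than in hindbrain, and *Col18a1* was lower. The 250 bases before the RefSeq start on build GRCm38.p6 were searched on both strands for GGGCGG, a GC box, for CCAAT and for TATAAA. The RefSeq start of *Col25a1* lies inside the gene as GENCODE annotates it, from 130131501 to 130599877, and the other stretches end at the GENCODE start. No annotated exon overlaps the stretches printed, and capitals mark the letters of these motifs in either orientation.
Col6a1 (chr10:76726169-76726294, minus strand): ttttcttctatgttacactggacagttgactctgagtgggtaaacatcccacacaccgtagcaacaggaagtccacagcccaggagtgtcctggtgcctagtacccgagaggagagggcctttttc
Col6a5 (chr9:105960644-105960893, minus strand): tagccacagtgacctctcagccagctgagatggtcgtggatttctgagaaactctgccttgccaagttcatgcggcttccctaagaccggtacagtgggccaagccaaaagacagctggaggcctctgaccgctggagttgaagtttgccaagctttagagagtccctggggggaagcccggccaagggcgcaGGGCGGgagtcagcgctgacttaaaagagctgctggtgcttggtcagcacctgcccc
Col25a1 (chr3:130180595-130180844, plus strand): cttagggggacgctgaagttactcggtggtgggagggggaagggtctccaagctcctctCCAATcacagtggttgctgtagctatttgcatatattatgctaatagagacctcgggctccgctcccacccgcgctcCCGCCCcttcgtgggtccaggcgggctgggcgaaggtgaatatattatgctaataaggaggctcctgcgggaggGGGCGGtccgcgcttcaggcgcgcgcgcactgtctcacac
Col18a1 (chr10:77166549-77166780, minus strand): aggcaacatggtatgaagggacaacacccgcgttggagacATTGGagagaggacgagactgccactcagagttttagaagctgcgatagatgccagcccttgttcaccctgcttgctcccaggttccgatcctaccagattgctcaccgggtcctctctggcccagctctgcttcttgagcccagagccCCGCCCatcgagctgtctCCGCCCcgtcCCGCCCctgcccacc

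The printed stretch of *Col6a1*, 126 bases long, held 0 of the motifs, *Col6a5* held 1 GGGCGG, *Col25a1* held 2 GGGCGG and 1 CCAAT, and *Col18a1* held 3 GGGCGG and 1 CCAAT. RefSeq gave 38 windows for 35 of the 44 collagens. Over all 250 bases, GGGCGG was in 22 of these 38 windows (57.9%) against 32.7% of 32817 windows of all genes. CCAAT was in 13 (34.2%) against 33.8%, and TATAAA was in 5 (13.2%) against 12.4%. The windows of all genes, from 26994 genes, were not filtered for protein-coding genes, whereas the collagens are all protein-coding. These are matches of letters and say nothing of binding.

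**Figure D1:**
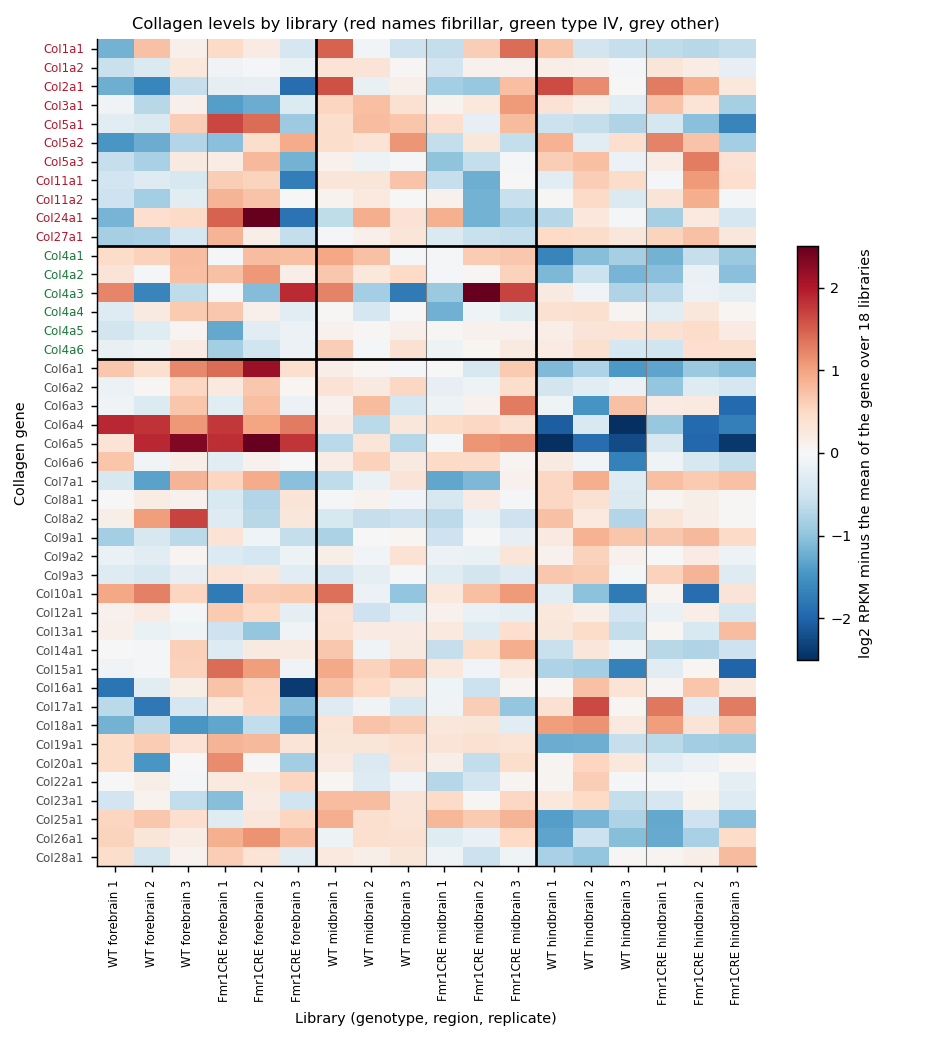
Level of each of the 44 collagens (rows) in each of the 18 libraries (columns), as log2 RPKM minus the mean of that gene over all libraries, from blue (lower) to red (higher). Black lines part the regions and the classes, and the 2 rows *Col6a4* and *Col6a5* are red in forebrain and blue in hindbrain.

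Summed by class, the type IV collagens were lower in hindbrain than in the other regions, a sum made up mostly of *Col4a1* and *Col4a2*, whereas the ranges of the fibrillar and the other collagens overlapped between all regions. The 11 fibrillar collagens together reached 34.2 ± 12.2 RPKM in forebrain, 37.1 ± 6.97 in midbrain and 37.9 ± 7.36 in hindbrain (SD, n = 6 libraries each). The 6 type IV collagens together reached 28.1 ± 4.59 RPKM in forebrain and 27.3 ± 6.07 in midbrain, but 11.4 ± 2.30 in hindbrain (SD, n = 6 each). The hindbrain libraries lay between 8.40 and 15.3 and did not overlap with forebrain, at 21.6 to 33.8, or midbrain, at 19.0 to 35.4. The 27 other collagens together reached 99.9 ± 25.2 in forebrain, 93.7 ± 11.3 in midbrain and 91.0 ± 13.6 in hindbrain (SD, n = 6 each). Of the type IV sum, *Col4a1* and *Col4a2* held 26.4 (forebrain), 25.1 (midbrain) and 9.26 RPKM (hindbrain). Of the other 4 members, *Col4a5* was higher in hindbrain than in forebrain, and 3 passed no test. With the union of exons as length the type IV sums were 17.0, 16.1 and 7.54 RPKM, the fibrillar sums 19.9, 20.7 and 20.2 and the other sums 50.4, 44.5 and 41.4. By effective length, type IV made up 17.9% of the summed collagen level in forebrain, 17.2% in midbrain and 8.18% in hindbrain. Without the replicate 3 libraries, the forebrain sums were 36.5 for fibrillar, 26.7 for type IV and 106 for other collagens. In bulk tissue, fewer cells of a type and less RNA per cell cannot be told apart.

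The order of the members depended on the gene length used. With the effective length weighted by the transcripts that salmon found, the highest fibrillar collagens in forebrain were *Col11a2* (10.9 RPKM), a chain of the cartilage fibril collagen XI, *Col1a2* (4.29), a chain of the type I collagen of fibroblasts, and *Col5a1* (3.47), which regulates fibril growth. The third place was not fixed, since *Col5a1* reached 2.30 in wild-type mice alone, below *Col3a1* (3.52), *Col1a1* (3.04) and *Col11a1* (2.63). In midbrain *Col11a2* (9.06) was followed by *Col3a1* (5.83), of vessel walls, and *Col1a2* (5.03), and in hindbrain *Col11a2* (12.1) by *Col1a2* (5.04) and *Col11a1* (4.70), the other type XI chain. In hindbrain *Col1a2* and *Col11a1* overlapped in their ranges over libraries, and in wild-type mice alone *Col3a1* (4.33) lay above *Col11a1* (4.30) there. By the union of exons as length, *Col1a1* (3.93) and *Col5a1* (2.94) lay above *Col1a2* (2.38) and *Col3a1* (1.51) in midbrain. The highest type IV collagens were *Col4a1*, *Col4a2* and *Col4a5* in all 3 regions. Among the others, *Col9a3*, a fibril-associated chain, reached 19.7 in forebrain and 28.2 in hindbrain, and *Col16a1*, also fibril-associated, reached 14.3 and 20.3. In place of the effective length, the union of annotated exons gave 3.07 RPKM for *Col16a1* and 9.17 for *Col9a3* in forebrain, and *Col6a1* then had the highest level of all collagens there, at 14.5 against 13.4 with the effective length.

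Some collagens drew many of their reads from transcripts that are not annotated as coding. Over the transcript files of all 18 libraries, the median share of a collagen's reads on coding transcripts was at least 90% for 30 members and under 50% for 2. These were *Col4a1*, at 8.77% to 33.4%, and *Col19a1*, at 25.3% to 41.6%. The most used *Col4a1* transcript, with a median of 69.2% of reads, is annotated as a target of nonsense-mediated decay. By the union of exons *Col4a2* (8.73 RPKM) lay above *Col4a1* (6.94) in forebrain, whereas by effective length *Col4a1* (19.6) lay above *Col4a2* (6.80). The order of this pair was therefore not fixed. The deposited counts matched salmon's abundances times the mean length of the gene over libraries, so that the transcript lengths estimated in each library also enter the comparison of a gene between regions. Its part in the differences of *Col4a1* and other collagens was not tested.

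**Figure D2:**
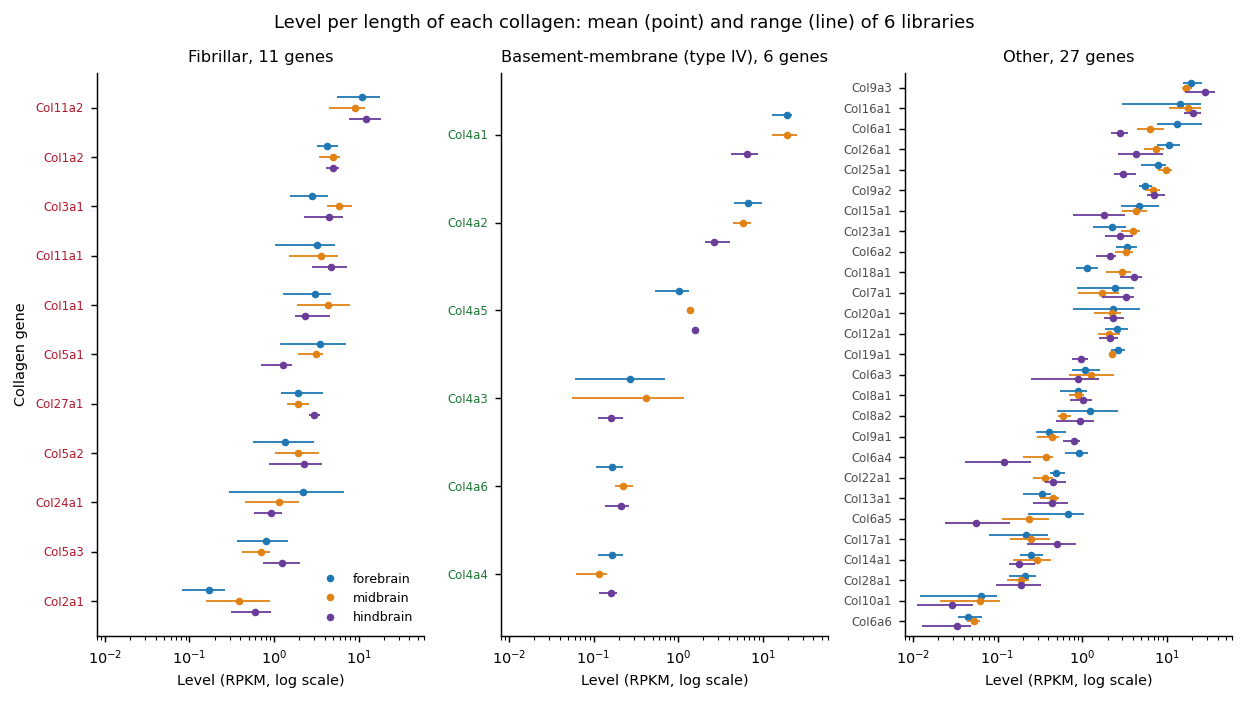
Level per length of each collagen in RPKM on a log scale, by class, with the mean (point) and the lowest to highest value (line) of the 6 libraries of a region in blue (forebrain), orange (midbrain) and purple (hindbrain). *Col4a1* and *Col4a2* lie to the left in hindbrain, and the lowest members, *Col6a6* and *Col10a1*, lie under 0.2 RPKM in every library.

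To ask where collagens differ along the brain, the regions were compared within mice with edgeR's quasi-likelihood test, with the mouse as a block, over all 18 libraries and 19313 genes. Calls have an adjusted p under 0.05 (Benjamini-Hochberg over all genes), fold changes are on the log2 scale, and errors of fold changes are standard errors. Of the 43 collagens tested, 19 differed between forebrain and hindbrain, where 51.6% of all genes did. Of these, 11 were higher in forebrain, against 26.3% of all genes, and 8 were lower, against 25.3%. Between midbrain and hindbrain 18 of 43 differed, where 49.1% of all genes did, with 14 higher in midbrain (25.2% of all genes) and 4 lower (23.9%). Between forebrain and midbrain 6 of 43 differed, against 18.2% of all genes, with 3 higher in forebrain (8.79%) and 3 lower (9.42%). The shares of collagens called, 44.2%, 41.9% and 14.0%, were near or below those of all genes, so that the family as a whole did not stand apart in how often it differed.

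The median log2 fold change over the 43 collagens was 0.06 between forebrain and hindbrain, beside -0.0087 over all genes, -0.06 between forebrain and midbrain, beside 0.023, and 0.06 between midbrain and hindbrain, beside -0.028. With total counts in place of TMM, the median of all genes moved to -0.14 between forebrain and hindbrain, and 11 collagens were called higher and 13 lower. Between midbrain and hindbrain that scaling gave 12 higher and 6 lower. Without the 2 forebrain libraries of replicate 3, 18 collagens were called between forebrain and hindbrain (42.4% of all genes), 8 between forebrain and midbrain (14.6%) and 15 between midbrain and hindbrain (48.5%). *Col17a1*, *Col9a3* and *Col27a1* were no longer called between forebrain and hindbrain, *Col6a4* between forebrain and midbrain, and *Col14a1*, *Col17a1* and *Col27a1* between midbrain and hindbrain.

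**Figure D3:**
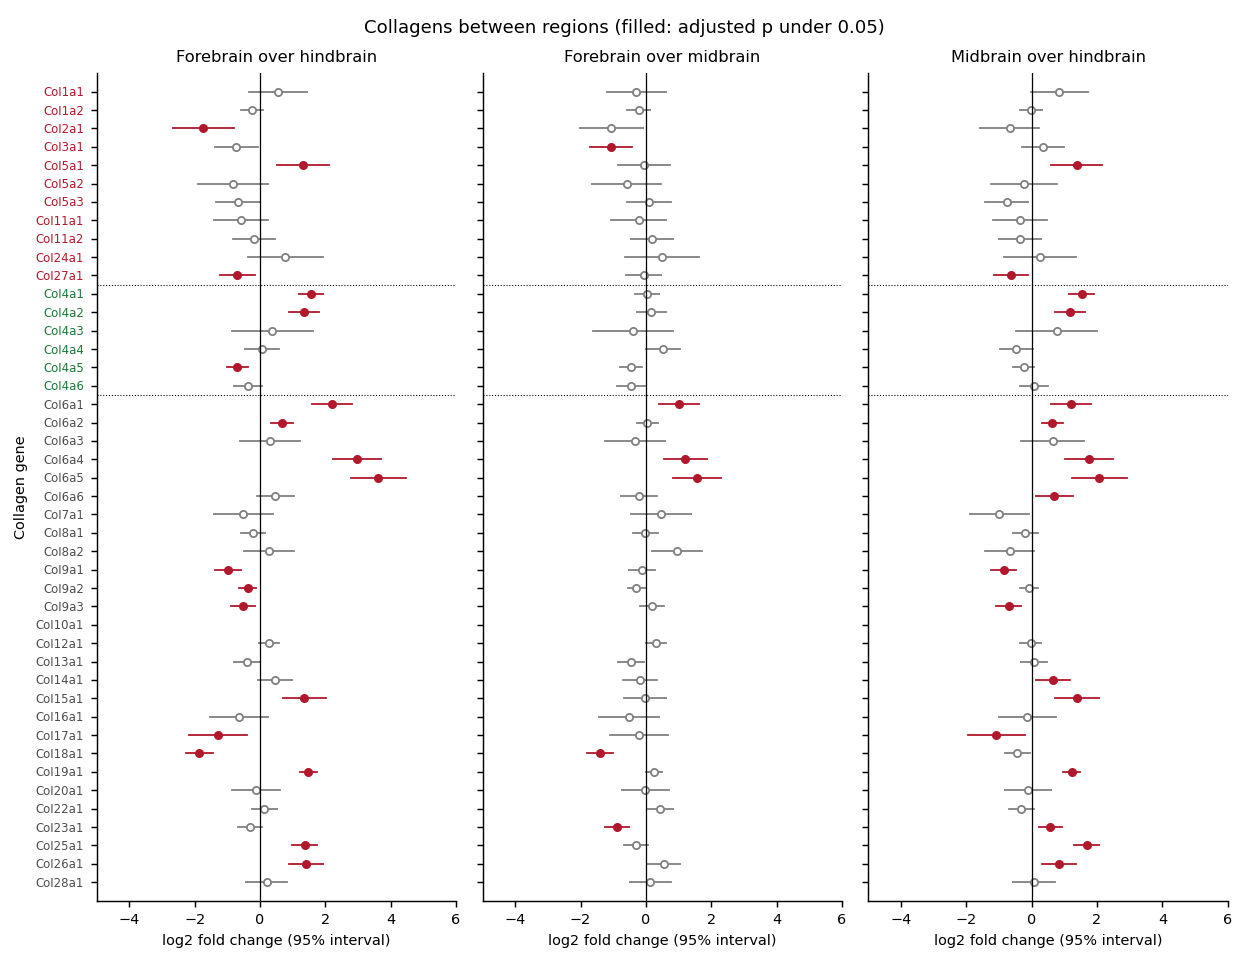
Log2 fold change of each of the 43 tested collagens with its 95% confidence interval, for forebrain over hindbrain (left), forebrain over midbrain (middle) and midbrain over hindbrain (right); filled red points have an adjusted p under 0.05. There are 19, 6 and 18 filled points, and the largest values are those of *Col6a5* and *Col6a4* over hindbrain.

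*Col4a1* and *Col4a2*, which form the common trimer of vascular basement membranes, were lower in hindbrain than in both other regions. *Col4a1* had a lowest, median and highest level of 12.9, 20.9 and 22.5 RPKM in forebrain, 12.9, 20.9 and 25.7 in midbrain, and 4.20, 6.63 and 8.83 in hindbrain. All 6 hindbrain libraries thus lay below every library of the other regions. The log2 fold change of *Col4a1* was 1.56 ± 0.18 between forebrain and hindbrain (adjusted p = 5.71e-06) and 1.53 ± 0.18 between midbrain and hindbrain (adjusted p = 1.22e-05). *Col4a2* had levels of 4.55, 6.73 and 9.80 RPKM in forebrain, 4.52, 6.03 and 7.38 in midbrain, and 2.07, 2.25 and 4.13 in hindbrain, again with no overlap. For *Col4a2* the log2 fold change was 1.34 ± 0.21 over hindbrain in forebrain (adjusted p = 0.000126) and 1.18 ± 0.21 in midbrain (adjusted p = 0.000482). Both genes were higher in forebrain than in hindbrain in 6 of 6 mice. Between forebrain and midbrain their log2 fold changes were 0.03 ± 0.17 and 0.17 ± 0.21, with adjusted p values of 0.926 and 0.628. The part of forebrain transcripts in the midbrain libraries was not tested here.

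*Col4a1* (chromosome 8, 11198423 to 11312826, minus strand) and *Col4a2* (11312805 to 11449287, plus strand) start head to head, and their annotated ends overlap by 22 bases. The same arrangement holds for the other type IV chains. *Col4a4* and *Col4a3* lie 71 bases apart on chromosome 1, and *Col4a6* and *Col4a5* lie 1308 bases apart on chromosome X. The chains a3, a4, a5 and a6 form the trimers of kidney and other special basement membranes. *Col4a5* went the other way from *Col4a1*, with 0.528 to 1.35 RPKM in forebrain, 1.31 to 1.41 in midbrain and 1.45 to 1.78 in hindbrain, and forebrain did not overlap with hindbrain. Its log2 fold change between forebrain and hindbrain was -0.70 ± 0.15 (adjusted p = 0.00152), and it was lower in forebrain in 6 of 6 mice. Its partner *Col4a6* was at 0.107 to 0.297 RPKM over all 18 libraries and had a log2 fold change of -0.37 ± 0.20 (adjusted p = 0.132).

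*Col4a3* and *Col4a4* were at low levels and passed no test between regions. *Col4a3* varied more between libraries than between regions, from 0.0564 to 1.17 RPKM in midbrain alone, and its log2 fold change between forebrain and hindbrain was 0.38 ± 0.57 (adjusted p = 0.613). *Col4a4* lay between 0.0615 and 0.225 RPKM in all libraries, with a log2 fold change of 0.06 ± 0.24 (adjusted p = 0.857). The high *Col4a3* libraries were not high in *Col4a4*. In the midbrain library of Fmr1CRE replicate 2, *Col4a3* was at 1.17 and *Col4a4* at 0.132 RPKM.

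Beside this difference of *Col4a1* and *Col4a2*, summed markers of vessel cells overlapped between forebrain and hindbrain. The 8 endothelial markers summed to 61.1 to 89.9 RPKM in forebrain, 55.4 to 70.1 in midbrain and 63.6 to 79.8 in hindbrain. The 7 pericyte markers summed to 61.4 to 80.3, 68.2 to 82.7 and 73.5 to 89.1, and the 6 smooth muscle markers to 28.3 to 44.1, 28.6 to 39.7 and 31.9 to 43.7. Of the endothelial markers 3 of 8 were higher in forebrain than in hindbrain and 0 lower, beside 26.3% and 25.3% of all genes. Between midbrain and hindbrain 2 were higher and 3 lower, beside 25.2% and 23.9% of all genes. Of the pericyte markers 1 of 7 was higher in forebrain than in hindbrain, *Pdgfrb* (1.08 ± 0.17, adjusted p = 9.6e-05), and *Kcnj8* and *Vtn* were lower. Of the smooth muscle markers 1 of 6 was higher, *Mylk* (1.27 ± 0.16), and *Myl9* was lower. The part of vessel cells in the collagen difference was not tested.

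Type VI collagens, which form beaded filaments next to basement membranes, showed the largest differences of the family. *Col6a1*, whose chain every type VI trimer needs, had a lowest, median and highest level of 7.79, 11.5 and 26.5 RPKM in forebrain, 4.51, 6.00 and 9.38 in midbrain, and 2.19, 2.79 and 3.46 in hindbrain. Forebrain and midbrain overlapped, and hindbrain lay below both. The highest forebrain values, 15.5 and 26.5, were those of Fmr1CRE replicates 1 and 2, the libraries high in the nuclear RNA *Meg3* that are described with the genotype comparison. The log2 fold change of *Col6a1* was 2.21 ± 0.29 between forebrain and hindbrain (adjusted p = 2.27e-05), 1.20 ± 0.28 between midbrain and hindbrain (adjusted p = 0.00296) and 1.01 ± 0.28 between forebrain and midbrain (adjusted p = 0.0239). The last call was lost without Fmr1CRE replicate 1, Fmr1CRE replicate 2 or wild-type replicate 3. *Col6a2*, the chain made with it, differed less, with a log2 fold change of 0.67 ± 0.15 between forebrain and hindbrain (adjusted p = 0.00197) and 0.63 ± 0.15 between midbrain and hindbrain (adjusted p = 0.00333). *Col6a3*, the usual partner of both, was at 0.249 to 2.36 RPKM over all libraries and passed no test.

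*Col6a4* and *Col6a5*, which encode chains that can take the place of the a3 chain, were low, with medians highest in forebrain and lowest in hindbrain. The midbrain libraries held transcripts of both neighbouring regions, and the part of these in the middle levels of midbrain was not tested. *Col6a4* had levels of 0.635, 0.937 and 1.18 RPKM in forebrain, 0.199, 0.400 and 0.458 in midbrain, and 0.0406, 0.0904 and 0.246 in hindbrain. *Col6a5* had levels of 0.230, 0.664 and 1.05 RPKM in forebrain, 0.112, 0.203 and 0.406 in midbrain, and 0.0242, 0.0429 and 0.139 in hindbrain. In hindbrain these levels rest on medians of 9 and 7 counts, against 88 and 102 counts in forebrain. Between forebrain and hindbrain the log2 fold changes were 2.97 ± 0.34 for *Col6a4* (adjusted p = 6.30e-06) and 3.62 ± 0.39 for *Col6a5* (adjusted p = 3.37e-06). Between forebrain and midbrain they were 1.21 ± 0.31 (adjusted p = 0.0153) and 1.55 ± 0.34 (adjusted p = 0.00667), and both genes were higher in forebrain in 6 of 6 mice. Between midbrain and hindbrain they were 1.76 ± 0.34 (adjusted p = 0.000864) and 2.07 ± 0.39 (adjusted p = 0.000676). Without the replicate 3 forebrain libraries *Col6a4* was 1.24 higher in forebrain than in midbrain on the log2 scale and no longer called (adjusted p = 0.0568), and it was not called there without wild-type replicate 1 either.

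*Col6a6*, *Col6a5* and *Col6a4* lie in a row on the minus strand of chromosome 9, from 105687809 to 106096783, with gaps of 27917 and 28810 bases. *Col6a6* was nearly absent, with 3 to 14 counts in all libraries and a log2 fold change between forebrain and hindbrain of 0.47 (adjusted p = 0.165). Its call between midbrain and hindbrain, at 0.69 (adjusted p = 0.0434), held in 3 of 14 alternative analyses. *Col6a2*, *Col6a1* and *Col18a1* lie on the minus strand of chromosome 10, from 76595762 to 77166548, and here neighbours differed in opposite directions.

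*Col18a1*, which encodes the basement-membrane multiplexin that yields endostatin, was lowest in forebrain. It had a lowest, median and highest level of 0.851, 0.989 and 1.53 RPKM in forebrain, 1.92, 2.92 and 3.83 in midbrain, and 2.78, 4.36 and 5.10 in hindbrain. No forebrain library reached the level of any library of the other regions. *Col18a1* had a log2 fold change of -1.86 ± 0.19 between forebrain and hindbrain (adjusted p = 2.04e-06) and -1.41 ± 0.19 between forebrain and midbrain (adjusted p = 0.000227), lower in forebrain in 6 of 6 mice in both. *Col15a1*, the other multiplexin, was instead lower in hindbrain, at 0.775 to 3.19 RPKM against 2.89 to 8.15 in forebrain and 2.96 to 5.94 in midbrain. Its log2 fold change was 1.35 ± 0.31 between forebrain and hindbrain (adjusted p = 0.00215). *Col18a1* overlaps *Slc19a1* on the opposite strand, and 18 of the 44 collagens overlap some gene there. Whether the counting used strand is not given in the sources used here, so that reads of such neighbours may not be told apart.

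Markers of other tissues that hold collagens were compared beside *Col18a1*. The 10 markers of meningeal and perivascular fibroblasts summed to 33.0 to 68.8 RPKM in forebrain, 79.9 to 108 in midbrain and 76.0 to 117 in hindbrain. Of these markers 5 of 10 were lower in forebrain than in hindbrain, beside 25.3% of all genes. The 9 markers of choroid plexus epithelium summed to 374 to 888, 169 to 487 and 944 to 3344. The 5 blood markers summed to 1622 to 5037, 1437 to 3286 and 3448 to 8874.5, and 5 of 5 were lower in forebrain than in hindbrain, beside the same 25.3%. Their part in the collagen differences was not tested.

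**Figure D4:**
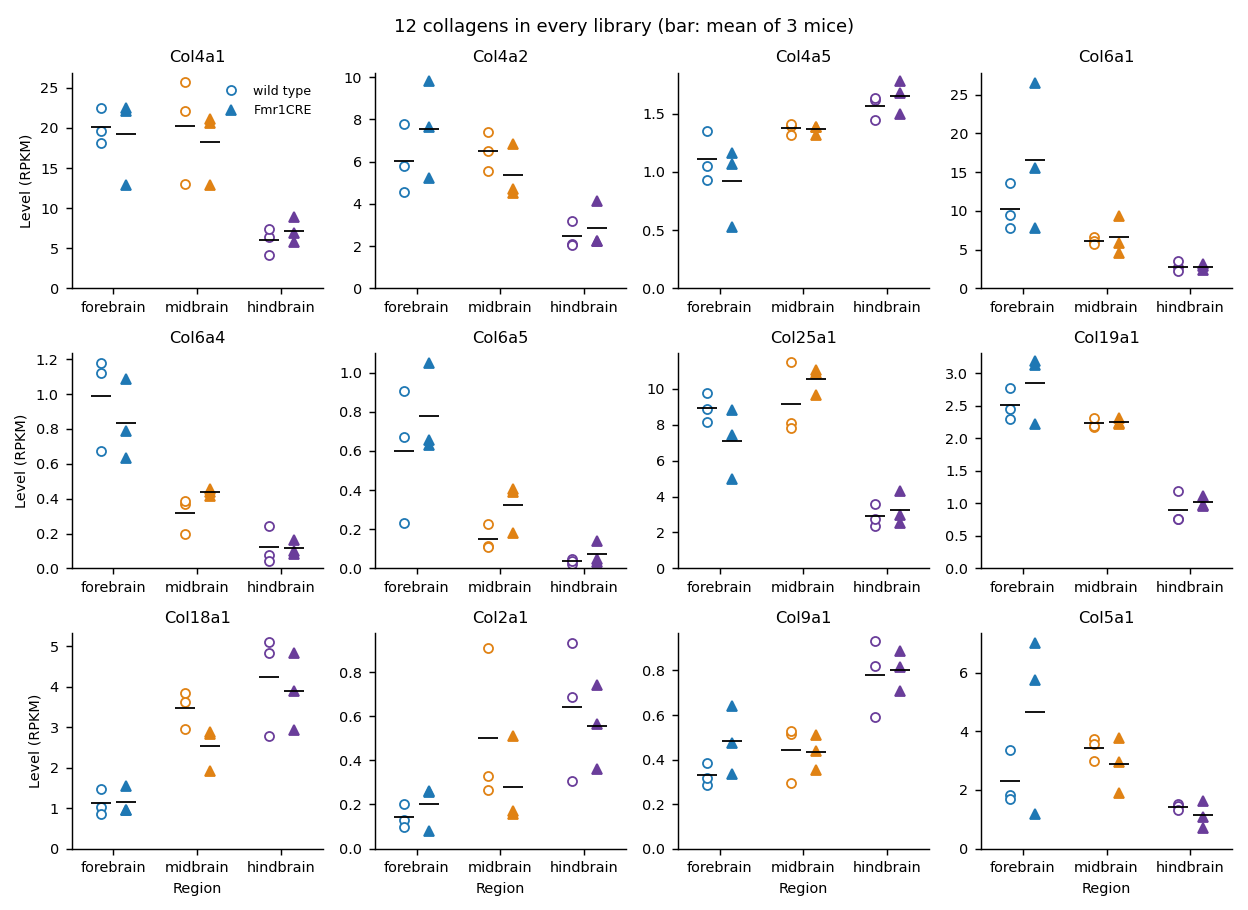
Level in RPKM of 12 collagens in every library, by region, with wild-type mice as open circles, Fmr1CRE mice as filled triangles and the mean of 3 mice as a bar. Hindbrain libraries lie below all others for *Col4a1*, *Col4a2*, *Col19a1* and *Col25a1*, forebrain libraries lie below all others for *Col18a1*.

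Collagens known from neurons were also among those lower in hindbrain. *Col25a1*, a membrane-spanning collagen found in amyloid plaques and needed for motor innervation, was at 4.95, 8.50 and 9.78 RPKM in forebrain (lowest, median and highest), 7.80, 10.3 and 11.5 in midbrain and 2.35, 2.86 and 4.30 in hindbrain. Hindbrain lay below both other regions, with log2 fold changes of 1.37 ± 0.18 for forebrain over hindbrain (adjusted p = 2.00e-05) and 1.68 ± 0.18 for midbrain over hindbrain (adjusted p = 5.50e-06). *Col19a1*, a fibril-associated collagen of interneurons, was at 2.22 to 3.18 RPKM in forebrain, 2.18 to 2.32 in midbrain and 0.757 to 1.19 in hindbrain. Its log2 fold changes over hindbrain, 1.48 ± 0.12 in forebrain (adjusted p = 2.29e-07) and 1.23 ± 0.12 in midbrain (adjusted p = 2.60e-06), placed hindbrain below every library of the other regions. *Col26a1*, a secreted collagen, was at 7.59 to 14.5 RPKM in forebrain and 2.66 to 9.14 in hindbrain, and its log2 fold change was 1.39 ± 0.24 (adjusted p = 0.000274).

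Other membrane-spanning collagens did not share this order. *Col23a1* was highest in midbrain, at 2.90 to 4.84 RPKM against 1.36 to 3.27 in forebrain and 1.89 to 4.01 in hindbrain. Its log2 fold change between forebrain and midbrain was -0.87 ± 0.17 (adjusted p = 0.00328). *Col17a1*, of the hemidesmosomes that anchor epithelia, was at 0.0783 to 0.391 RPKM in forebrain and 0.226 to 0.855 in hindbrain. Its log2 fold change there was -1.29 ± 0.41 (adjusted p = 0.0175), a call lost without Fmr1CRE replicate 3 or wild-type replicate 2. *Col13a1* passed no test.

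The type IX chains, which coat type II fibrils, were lower in forebrain than in hindbrain. *Col9a1* was at 0.284 to 0.641 RPKM in forebrain, 0.293 to 0.528 in midbrain and 0.592 to 0.934 in hindbrain, and its log2 fold change between forebrain and hindbrain was -0.99 ± 0.18 (adjusted p = 0.000456). *Col9a2* had a log2 fold change of -0.38 ± 0.12 (adjusted p = 0.0201) and *Col9a3* of -0.52 ± 0.17 (adjusted p = 0.0215). Between midbrain and hindbrain *Col9a1* (-0.86) and *Col9a3* (-0.71) passed the test and *Col9a2* (-0.09, adjusted p = 0.572) did not. The *Col9a2* call was lost without Fmr1CRE replicate 2 or wild-type replicate 2, and the *Col9a3* call without wild-type replicate 1 or replicate 2. *Col9a1* and *Col19a1* are neighbours on chromosome 1, 9205 bases apart, from 24177610 to 24587472, and differed in opposite directions between hindbrain and the other regions.

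Of the 11 fibrillar collagens, 3 differed between forebrain and hindbrain, 1 between forebrain and midbrain and 2 between midbrain and hindbrain, where 51.6%, 18.2% and 49.1% of all genes did. Without the replicate 3 forebrain libraries these counts were 4, 1 and 1. *Col2a1*, the type II collagen of cartilage, was at 0.0807, 0.166 and 0.262 RPKM in forebrain (lowest, median and highest) and 0.306, 0.627 and 0.932 in hindbrain, without overlap, and its log2 fold change was -1.73 ± 0.44 (adjusted p = 0.00450). *Col5a1* was instead higher in forebrain, by 1.31 ± 0.37 (adjusted p = 0.00924), and in midbrain, by 1.37 ± 0.37 (adjusted p = 0.00698), than in hindbrain. Its forebrain libraries ran from 1.17 to 7.02 RPKM and overlapped with hindbrain at 0.702 to 1.63. The highest, 7.02 and 5.76, were Fmr1CRE replicates 1 and 2, the libraries high in *Meg3*, and in wild-type mice alone the log2 fold change of *Col5a1* over hindbrain was 0.63 and not called. *Col27a1* was lower in forebrain than in hindbrain by a log2 fold change of -0.70 ± 0.25 (adjusted p = 0.0285), a call lost without Fmr1CRE replicate 3 or any 1 of the wild-type mice. *Col3a1* was lower in forebrain than in midbrain, at 1.54 to 4.37 against 4.23 to 8.30 RPKM and in 6 of 6 mice, with a log2 fold change of -1.07 ± 0.30 (adjusted p = 0.0242). That call was lost without Fmr1CRE replicate 2, wild-type replicate 1 or wild-type replicate 2.

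The type I chains, the main product of fibroblasts, passed no test between regions. *Col1a2* was at 3.22 to 5.68 RPKM in forebrain, 3.39 to 6.00 in midbrain and 4.10 to 5.83 in hindbrain, and *Col1a1* at 1.27 to 4.73, 1.88 to 7.95 and 1.77 to 4.64. Between forebrain and hindbrain the log2 fold change was -0.24 ± 0.16 for *Col1a2* (adjusted p = 0.218) and 0.54 ± 0.41 for *Col1a1* (adjusted p = 0.291). Both chains form 1 trimer, yet they differed in how far libraries spread.

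Genes that build, secrete, bind or degrade collagen were taken from a list of 55 genes. Of the 52 tested between forebrain and hindbrain, 13 were higher in forebrain and 16 lower, near the 26.3% and 25.3% of all genes. Between forebrain and midbrain 2 were higher in forebrain and 9 lower, beside 8.79% and 9.42% of all genes. Between midbrain and hindbrain 12 were higher in midbrain and 9 lower, beside 25.2% and 23.9% of all genes. The 11 basement-membrane partners of type IV collagen had a median log2 fold change of 0.53 between forebrain and hindbrain, with 6 higher, among them the laminin chain *Lamc1* (0.53 ± 0.12, adjusted p = 0.00168) and the proteoglycan agrin, *Agrn* (0.90 ± 0.16, adjusted p = 0.000342), and 2 lower. The lower members were *Nid1* (-1.20 ± 0.22, adjusted p = 0.000358), which links laminin to type IV collagen, and *Lama1* (-0.95 ± 0.32, adjusted p = 0.0247). *Hspg2*, which encodes perlecan, had a log2 fold change of 0.11 (adjusted p = 0.595).

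Of the 16 enzymes and chaperones of modification and folding, 3 were higher and 6 lower in forebrain than in hindbrain, which is not set apart from all genes at 26.3% and 25.3%. Among them were the lysyl hydroxylase *Plod2* (-0.93 ± 0.13, adjusted p = 4.29e-05) and the prolyl hydroxylase subunit *P4ha1* (0.41 ± 0.07, adjusted p = 0.000281). Of the 13 tested genes of secretion, processing and cross-linking, 2 were higher and 5 lower, the latter with *Sparc*, a collagen-binding chaperone of the matrix (-1.44 ± 0.16, adjusted p = 5.18e-06), and *Loxl2*, a cross-linking enzyme (-0.98 ± 0.15, adjusted p = 8.72e-05). Among 9 receptors 2 were higher and 2 lower, and among 3 tested genes of degradation 0 were higher and 1 lower.

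To ask whether the regulatory variant changes collagens, edgeR's quasi-likelihood test was run on the 6 libraries of a region, Fmr1CRE over wild type. In forebrain 0 of 42 tested collagens had an adjusted p under 0.05, beside 0% of 18467 genes. In midbrain 0 of 43 did, beside 0.00543% of 18400 genes, and in hindbrain 0 of 41, beside 0% of 19112 genes. When each mouse was reduced to the sum of its 3 regions, 0 of 44 did, beside 0.00451% of 22191 genes. At an unadjusted p under 0.05 there were 6 collagens in forebrain (5.43% of all genes), 7 in midbrain (6.17%), 0 in hindbrain (5.13%) and 2 in the sums (3.7%). A test of whether the genotype difference itself differed between regions gave 0 of 43 collagens at an adjusted p under 0.05, beside 0% of 20363 genes, and 3 at an unadjusted p (7.14% of all genes). DESeq2 called 1 collagen in forebrain, *Col11a2*, and 1 for the difference between regions, *Col27a1*, and 0 in midbrain, hindbrain and the sums, where it called 0.168% of all genes in forebrain, 0.378% for the difference between regions, 0.337% in midbrain, 0.314% in hindbrain and 0.131% in the sums. Without both forebrain libraries of replicate 3, edgeR called 0 of 42 collagens in forebrain (0% of all genes), and 22 of 42 had an unadjusted p under 0.05, where 13.6% of all genes did. An exact permutation test of a single gene, two-sided, cannot go below p = 0.1 with 3 mice in each genotype.

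The median standard error of the genotype difference over the collagens was 0.33 in forebrain, 0.25 in midbrain and 0.29 in hindbrain on the log2 scale, and it was above 0.5 for 9, 4 and 3 members. The median log2 fold change of the collagens was 0.32 in forebrain with 30 of 42 above 0, beside 0.00094 over all genes, and 0.54 with 30 of 42 above 0 without the replicate 3 libraries. In midbrain it was -0.15 with 13 of 43 above 0, beside -0.0046, in hindbrain -0.026 with 20 of 41 above 0, beside -0.0091, and in the sums -0.0030, beside 0.00036.

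**Figure D5:**
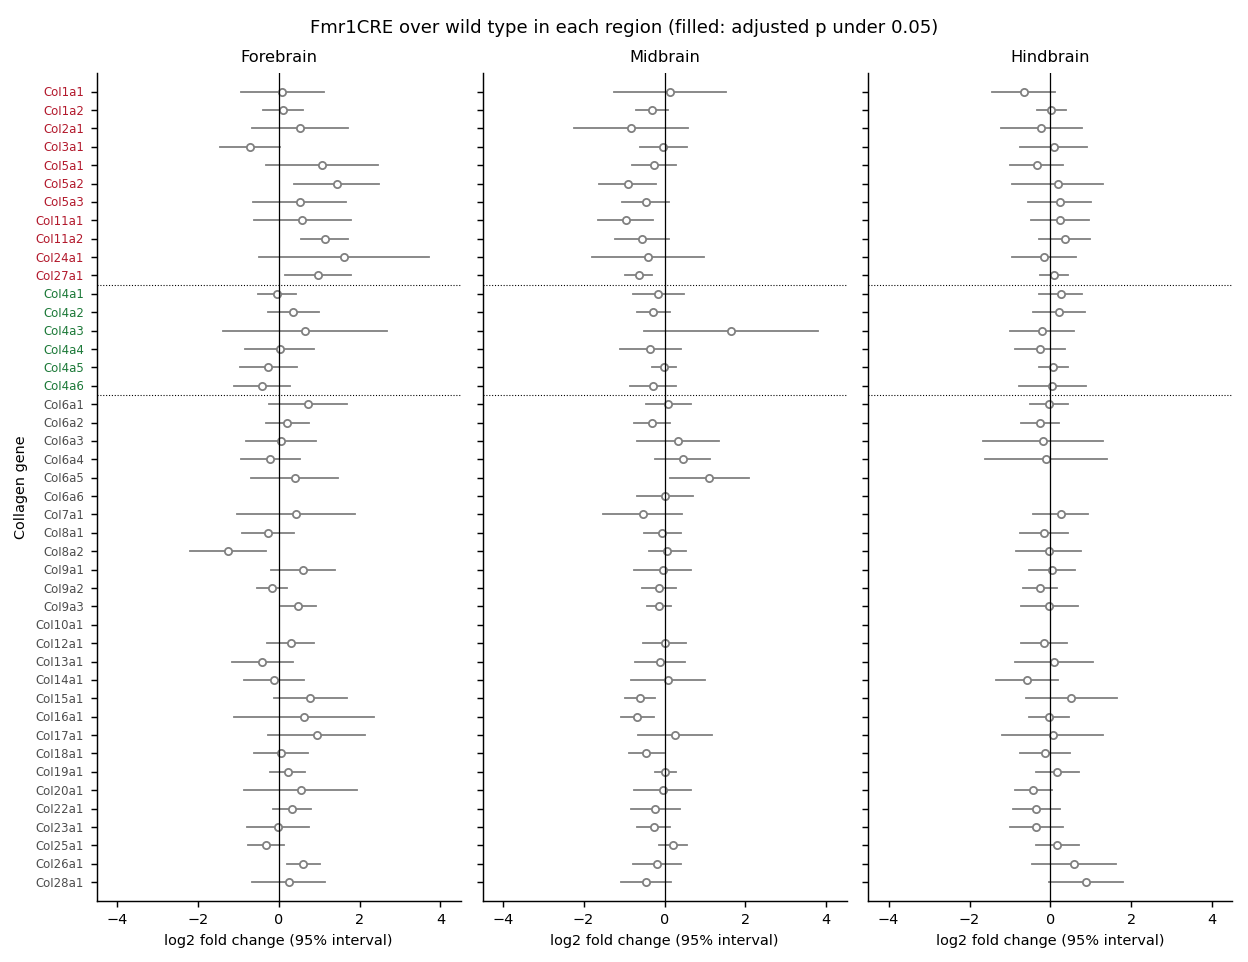
Log2 fold change of Fmr1CRE over wild-type mice with its 95% confidence interval for the tested collagens in forebrain (42), midbrain (43) and hindbrain (41), where a filled point would have an adjusted p under 0.05. There are 0 filled points. Of 11 fibrillar collagens, 10 lie above 0 in forebrain and 1 in midbrain, beside medians of 0.00094 and -0.0046 over all genes. Several of them were high together in Fmr1CRE forebrain replicates 1 and 2 and low together in Fmr1CRE midbrain replicate 2, so they are not independent.

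The collagens with the smallest p in forebrain were *Col11a2*, *Col26a1* and *Col5a2*. They were picked by their p from the values given here, so a lack of overlap between genotypes adds no support. *Col11a2* was at 6.99, 5.57 and 8.29 RPKM in the wild-type mice and at 18.0, 16.3 and 10.1 in the Fmr1CRE mice (replicates 1 to 3), so that the genotypes did not overlap. Its log2 fold change was 1.13 (95% interval 0.55 to 1.72), and its adjusted p was 0.806 from edgeR and 0.0185 from DESeq2. Without both libraries of replicate 3 it was 1.51 (adjusted p = 0.0998 from edgeR). *Col26a1* was at 9.80, 8.17 and 7.59 in wild-type and 12.3, 14.5 and 11.3 in Fmr1CRE mice, with a log2 fold change of 0.61 (adjusted p = 0.806 from edgeR). *Col5a2*, a partner of *Col5a1*, was at 0.570, 0.665 and 0.948 in wild-type and 0.759, 2.12 and 2.97 in Fmr1CRE mice, an overlap of the genotypes, with a log2 fold change of 1.43 (adjusted p = 0.806 from edgeR).

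In midbrain the smallest p belonged to *Col27a1*, *Col16a1* and *Col15a1*, which had lower values in Fmr1CRE mice. *Col27a1* was at 2.05, 2.33 and 2.61 RPKM in wild-type and 1.65, 1.45 and 1.41 in Fmr1CRE mice, and its log2 fold change was -0.63 (95% interval -0.97 to -0.30, adjusted p = 0.676 from edgeR). *Col16a1* had a log2 fold change of -0.68 and *Col15a1* of -0.61, each with an adjusted p of 0.751 from edgeR. In all of them the 3 Fmr1CRE libraries lay below the 3 wild-type libraries. These genes were picked by their p from the same values, so their separation adds no support. How many of all genes separated in this way was not counted. In hindbrain *Col28a1* (0.89), *Col20a1* (-0.42) and *Col1a1* (-0.66) came first, with an adjusted p of 0.875 each from edgeR. In the sums over regions *Col8a2*, of corneal basement membrane, had a log2 fold change of -0.51, *Col6a1* of 0.44 and *Col26a1* of 0.33. Each had an adjusted p of 0.998 from edgeR. *Col27a1*, *Col11a2* and *Col5a2* had the smallest p for a difference of the genotype effect between regions. These were 0.00165, 0.0103 and 0.032 unadjusted and 0.680 each adjusted, from edgeR.

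In forebrain several collagens were high in the same 2 Fmr1CRE libraries. *Col5a1*, *Col11a1*, *Col11a2*, *Col16a1*, *Col24a1* and *Col27a1*, chosen after their values were seen, summed to 17.3, 25.6 and 34.5 RPKM in wild-type replicates 1 to 3 and to 62.7, 58.9 and 16.9 in Fmr1CRE replicates 1 to 3. The third Fmr1CRE library thus lay below every wild-type library, and the third wild-type library was the highest of its genotype. These are the 2 forebrain libraries of replicate 3 that did not follow the other regions of the mice they are labelled with. Where they fall by genotype therefore rests on doubted labels. The labels of replicate 2, which holds 1 of the 2 high Fmr1CRE libraries, are not certain either. In the same check 3 of its 9 genes kept their direction in forebrain and 5 went the opposite way. *Col6a1* was also high in Fmr1CRE replicates 1 and 2, at 9.49, 7.82 and 13.5 RPKM in wild-type and 15.5, 26.5 and 7.79 in Fmr1CRE replicates 1 to 3. *Meg3*, a long noncoding RNA kept in the nucleus, was at 2651, 2154.5 and 3243.5 CPM in the same wild-type libraries and at 6842, 6242 and 1875 in the Fmr1CRE libraries. *Malat1*, another nuclear RNA, was at 1002, 887 and 915 CPM and at 2325.5, 1825 and 817. In midbrain the 6 collagens were lowest in Fmr1CRE replicate 2, at 20.5 against 32.3 to 46.3 RPKM in the other libraries, and *Meg3* was lowest there too, at 1570 against 2602 to 3383 CPM, whereas *Malat1* was highest there, at 864 against 790 to 859 CPM. The part of nuclear RNA in these collagen values was not tested.

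The type IV collagens with the clearest region differences passed no test by genotype. For *Col4a1* the log2 fold change was -0.04 ± 0.20 (forebrain), -0.15 ± 0.27 (midbrain) and 0.25 ± 0.23 (hindbrain) (adjusted p = 0.973, 0.940 and 0.907 from edgeR), and those of *Col4a2* were 0.36 ± 0.27, -0.28 ± 0.18 and 0.21 ± 0.28 (adjusted p = 0.817, 0.842 and 0.934 from edgeR). The region differences were also fitted in each genotype alone. Between forebrain and hindbrain, the log2 fold change of *Col4a1* was 1.74 in wild-type and 1.36 in Fmr1CRE mice, that of *Col6a4* 3.05 and 2.82, that of *Col6a5* 3.91 and 3.33, and that of *Col18a1* -1.93 and -1.82. Each of these passed the test in each genotype. Other collagens called between forebrain and hindbrain did not. *Col2a1*, *Col9a1*, *Col9a3*, *Col17a1* and *Col27a1* were not called in Fmr1CRE mice alone, *Col5a1* not in wild-type mice alone, and *Col9a2* in neither genotype alone.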

How the data were processed

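Poly(A) RNA of forebrain, midbrain and hindbrain from 3 wild-type and 3 Fmr1CRE mice was sequenced as single-end reads. The paper states that the libraries were combined into pools, each run on a single flow cell. Which libraries shared a pool is not given in the sources used here, so no fit includes it. The authors ran the bcbio_nextgen pipeline with salmon and imported its estimates per gene. The deposited gene table holds whole-number counts, which lay within 1% of salmon's abundance times the mean gene length over libraries for 99.62% to 99.67% of 9673 genes with more than 200 counts in every library, each library set against its closest transcript file. The transcripts salmon assigned reads to can therefore alter them. The submitters' processing notes name Salmon 0.14.0, DESeq2 1.30.1 and the build mm10. The deposited transcript files hold expected counts and effective lengths, which were used over all files and without their sample names to weight gene lengths. The deposited variance-stabilized table was held in part only and was not used. The annotation release the authors used is not given in the sources used here. Coordinates are from GENCODE M21 on GRCm38, and 53431 of 53468 gene IDs matched, with 0.0151% of counts on the rest.

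Genes were filtered with filterByExpr, scaled by TMM and tested with edgeR 4.0.16 in R 4.3.3 (glmQLFit, glmQLFTest, Benjamini-Hochberg over all genes tested), with DESeq2 1.42.0 as an alternative. Region fits used all 18 libraries with the mouse as a block, since the titles give the mouse number of each library. Genotype fits used the 6 libraries of a region, or counts summed per mouse, with no block. The scripts were tested on simulated data with 200 changed genes. In the genotype designs, 77.5% to 83% of genes changed by 1.5 on the log2 scale were called. There 7.74% to 8.09% of calls were false at an adjusted p under 0.05. In the region design, 78.5% of genes changed by 1 were called and 1.88% of calls were false. Levels are RPKM on the TMM scale. TPM had been planned, but most of its total rested on genes with an effective length under 50 bases. The alternatives were another tool, scaling, filter or gene length, the other use of the block, either genotype alone, and fits without each mouse or without the doubted libraries. The named collagens are the 3 highest of each class and region, up to 6 called higher and 6 called lower per region comparison, the 3 smallest p per genotype comparison, and the 3 type IV pairs. *Col6a2*, *Col6a3*, *Col6a6*, *Col10a1*, *Col13a1*, *Col14a1*, *Col22a1* and *Col24a1* were named after their values were seen. The members and lists were chosen with earlier results of these data known.

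Mice with the same replicate number in both genotypes share only that number, with correlations of their deviations between -0.12 and 0.0693. Regions of 1 mouse are paired by the animal, with correlations from -0.17 to 0.178.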

Additional observations from a re-analysis of the deposited data

Results flagged for a closer look

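Within a region, 6 of 132 groups of 6 libraries held a collagen level that stood apart from the rest by Dixon's test, where chance gives about 1 in 20. Their values are in RPKM. *Col1a1* was at 4.64 in the hindbrain library of wild-type replicate 1, with the next at 2.07. *Col6a4* was at 0.199 in the midbrain library of wild-type replicate 2, with the next at 0.369. *Col6a5* was at 0.139 in the hindbrain library of Fmr1CRE replicate 1, with the next at 0.0484. *Col13a1* was at 0.317 in the midbrain library of Fmr1CRE replicate 2, with the next at 0.453. *Col22a1* was at 0.651 in the hindbrain library of wild-type replicate 2, with the next at 0.449. *Col26a1* was at 9.14 in the hindbrain library of Fmr1CRE replicate 3, with the next at 4.58.

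Other collagens differed in opposite directions between groups. For differences between regions this was read within each mouse as labelled, so that for *Col11a2* and *Col27a1* it rests on the doubted forebrain libraries of replicate 3: across mice, forebrain and midbrain of Fmr1CRE mice overlapped for both genes. The log2 ratio of the mean level of *Col28a1* in Fmr1CRE over wild-type mice was 0.89 in hindbrain and -0.46 in midbrain, and its mean level in midbrain minus hindbrain was 0.0891 RPKM in wild-type and -0.0846 in Fmr1CRE mice. The mean level in forebrain minus midbrain was -3.86 RPKM in wild-type and 7.50 in Fmr1CRE mice for *Col11a2*, and -0.995 and 1.03 for *Col27a1*. The test of a genotype difference that varies over the 3 regions gave an adjusted p of 0.680 from edgeR for each of these genes, and DESeq2 passed the threshold for *Col27a1* alone among the collagens.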

How the results depend on the processing

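The number of collagens called between forebrain and hindbrain, 19, was 13 to 24 over the alternatives, and 16 to 21 when any 1 mouse was left out. Between forebrain and midbrain, 6 became 4 to 6 without any 1 mouse and 0 in Fmr1CRE mice alone. Between midbrain and hindbrain 18 became 13 to 19 and 7. The fits in Fmr1CRE mice alone rest on 3 mice, and calls over all genes fell there as well. Between forebrain and midbrain they gave 182 of 19434 genes against 3518 of 19313 in all mice, and between forebrain and hindbrain 5933 against 9975. Without any 1 mouse, these comparisons called 2465 to 2944 and 8842 to 9709 genes. Without the replicate block by mouse the collagen counts were 21, 7 and 19. No paired analysis is implied by the replicate numbers across genotypes, and with that replicate block the genotype counts stayed 0 in forebrain, midbrain, hindbrain and the sums; the test across regions gave 0 without its block. Without any 1 mouse the genotype counts were 0 to 0. DESeq2 called 1 collagen by genotype in forebrain and 1 across regions. Over all named collagens, 146 of the region values kept their call and 22 lost it when a mouse was left out, and 218 kept it and 26 lost it under the other alternatives, with 0 reversed. The cause was not tested. Summed class levels moved in 18 cases with another gene length or TPM. The type IV sum in forebrain, for example, was 28.1 RPKM by effective length and 17.0 by the union of exons.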
